A study of Rattus norvegicus with 12 samples.

Results

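Chaperones and stress factors of the endoplasmic reticulum were followed as 10 genes in rat lung. They were 3 protein disulfide isomerases (Pdia3, Pdia4 and Pdia6), the chaperones Hspa5 and Hsp90b1, the lectin chaperones Calr and Canx, and the transcription factors Ddit3, Atf4 and Xbp1. The members were listed by symbol with earlier results of these data known. Each was measured by the probe whose RefSeq accession maps to that symbol. Each of the 10 genes had 1 probe, and all 10 probes were well above background on 12 of 12 arrays, so none of the members was lost to a filter on dim probes. In all, 11146 named genes had a detected probe, and 21239 probes were tested. The array held the lungs of 12 male Sprague–Dawley rats aged 8 to 12 weeks, with 3 rats in each of 4 groups. The CS+LPS rats inhaled cigarette smoke until day 30 and had lipopolysaccharide (LPS), a bacterial cell wall component, instilled into the trachea on days 5 and 19. The Control rats had neither, and were given only air and saline. The CS+LPS+NaHS rats had the same exposure and were injected before it with NaHS, a salt that releases hydrogen sulfide (H2S). The CS+LPS+PPG rats had the same exposure and were injected before it with propargylglycine (PPG), which blocks the H2S-forming enzyme CTH. Lung tissue was taken 24 h after the last exposure to smoke. The exposure serves as a model of chronic obstructive pulmonary disease (COPD), and the study asked how exposure changed lung gene expression and how an H2S donor or an inhibitor of its synthesis altered that.

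The endoplasmic reticulum folds proteins that are to be secreted or placed in membranes. Hspa5, also called BiP, binds unfolded chains, Hsp90b1 (GRP94) helps later folding steps, the disulfide isomerases form and exchange disulfide bonds, and Calr and Canx hold glycoproteins while these fold. When unfolded proteins accumulate, sensors in the membrane of the organelle start the unfolded protein response. The sensor Ern1 splices the mRNA of Xbp1, the sensor Atf6 is cut to a transcription factor, and both raise chaperone transcription through the endoplasmic reticulum stress element. The kinase Eif2ak3 slows translation in general while Atf4 is still translated, and Atf4 raises Ddit3, also called CHOP, which is tied to cell death under lasting stress. Alveolar type 2 cells, airway secretory cells and plasma cells all carry a heavy secretory load. An array probe gives the amount of mRNA, so neither the splicing of Xbp1 nor the translation of Atf4 was measured.

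The promoters of the members show which of them carry that element, and 3 of them are printed for this reason. RefSeq promoters of assembly GRCr8 were at hand for 8 of the 10 members, the others being Pdia3 and Pdia6. The element was searched on both strands as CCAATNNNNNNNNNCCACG, from 250 bases before to 50 bases after the start site. It was found in 5 of the 8 promoters (Hspa5, Hsp90b1, Calr, Canx and Xbp1), against 22 of 33469 promoters in the table (0.0657%). These 5 are among the 22. The element is known from chaperone genes, so its presence here is a description and no test. It was not found in Pdia4, Ddit3 or Atf4. Its end pieces overlap the full element and are common by themselves. CCAAT stood in 7 of the 8 promoters and in 37.5% of all promoters, and CCACG in 8 of the 8 and in 31.6% of all. The letters TGATGCAA, a C/EBP-ATF element, were in 0 of the 8 promoters and 0.795% of all, and TGACGTGG, an unfolded protein response element, in 0 of the 8 and 0.595% of all. A match in the letters is no measure of binding. The 250 bases before the start site are printed below in lower case, 5′ to 3′ on the strand of the gene, with CCAAT and CCACG of each full element in capitals. Hspa5 holds 1 element close to its start site, Hsp90b1 holds 2, of which the second runs on the opposite strand, and Atf4 holds none.
Hspa5, chr3:38452766-38453015, plus strand: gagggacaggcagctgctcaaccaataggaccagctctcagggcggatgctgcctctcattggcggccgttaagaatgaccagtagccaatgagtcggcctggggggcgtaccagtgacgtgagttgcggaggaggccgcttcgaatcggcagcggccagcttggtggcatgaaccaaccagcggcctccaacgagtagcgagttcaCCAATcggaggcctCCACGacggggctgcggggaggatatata
Hsp90b1, chr7:23012294-23012543, minus strand: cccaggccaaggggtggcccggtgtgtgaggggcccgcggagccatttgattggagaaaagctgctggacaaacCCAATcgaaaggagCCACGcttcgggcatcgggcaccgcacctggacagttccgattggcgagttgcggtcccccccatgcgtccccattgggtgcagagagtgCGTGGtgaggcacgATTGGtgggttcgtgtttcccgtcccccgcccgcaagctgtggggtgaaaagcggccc
Atf4, chr7:113684431-113684680, plus strand: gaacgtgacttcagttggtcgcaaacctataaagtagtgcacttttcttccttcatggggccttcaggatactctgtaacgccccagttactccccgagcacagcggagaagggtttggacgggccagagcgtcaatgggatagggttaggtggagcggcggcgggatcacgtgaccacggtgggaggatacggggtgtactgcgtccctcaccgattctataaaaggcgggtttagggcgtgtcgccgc
The elements of the other 3 promoters are shown by themselves, read from CCAAT to CCACG. That of Calr lies on the opposite strand of its gene.
Calr, chr19:40213135-40213153: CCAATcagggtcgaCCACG
Canx, chr10:35158069-35158087: CCAATcatcacgctCCACG
Xbp1, chr14:84604558-84604576: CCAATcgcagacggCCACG

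The level of a gene is given as log2 signal, the log2 of the processed signal of its probe after each array was scaled to a common 75th percentile. A difference of 1 on this scale is a fold of 2, and a level of one gene cannot be set against that of another because probes differ. Differences were tested with limma on all 12 arrays and all detected probes, two-sided, and a change was called at a Benjamini-Hochberg adjusted p under 0.05. The arrays lay on 2 slides. Slide 2 held the 3 CS+LPS arrays and control replicate 3, and slide 1 held the other 8 arrays. Slide and treatment cannot be told apart between CS+LPS and the treated groups except through control replicate 3, and the plot of log2 changes shows both fits, without and with slide as a block, for each member. With slide as a block, 41.6% of all probes were called in CS+LPS against Control, 23% in CS+LPS+NaHS against CS+LPS and 22.6% in CS+LPS+PPG against CS+LPS, so calls in that fit are read against these shares. Against Control, the shares were 0.0706% in CS+LPS+NaHS and 3.02% in CS+LPS+PPG. Control replicate 3 had the lowest 75th percentile of signal (1229, against 2110 to 3261 on the other arrays) and the lowest correlations with other arrays (0.936 to 0.956, against at least 0.975 for any other pair, across probes, which are not independent replicates). Precision is limited by the 3 arrays of each group. Because whole lung tissue was measured, fewer cells of a type and less RNA per cell cannot be told apart. Markers fixed for the cells of the lung were present, with 5 of 6 alveolar type 2, 4 of 4 alveolar type 1, 4 of 5 airway secretory and 3 of 3 endothelial markers detected, while the macrophage marker Marco was not detected.

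Across the 4 groups, the chaperones and the stress factors were ordered differently. All 7 chaperones had their highest group mean in CS+LPS+NaHS, under each of 6 other scalings and background settings as well, although Hspa5 led Control by only 0.04. The settings share the same arrays and the 7 chaperones vary together, so these are not separate observations. The share of all probes highest in that group was not counted. With slide as a block this held for 4 of the 7, while Hspa5 lay 0.02 below Control and Pdia6 and Calr lay 0.64 and 0.03 below CS+LPS. The lowest mean was in CS+LPS for 6 of the 7, with Pdia6 lowest in Control, but with arrays scaled to the median of all probes it was in CS+LPS for only 3 of the 7. Ddit3 and Atf4 had their highest mean in Control, and Xbp1 in CS+LPS. The mean log2 signal over the 7 chaperones was 12.48 ± 0.27 (SD, n = 3) in Control, 12.27 ± 0.36 in CS+LPS, 13.05 ± 0.21 in CS+LPS+NaHS and 12.57 ± 0.28 in CS+LPS+PPG. The mean over the 3 factors was 13.89 ± 0.08 in Control, 13.68 ± 0.09 in CS+LPS, 13.47 ± 0.14 in CS+LPS+NaHS and 13.55 ± 0.06 in CS+LPS+PPG. In most chaperones the Control, CS+LPS and CS+LPS+PPG groups overlapped and neighbours in the order lay within their spread. CS+LPS replicate 3 stood low over the chaperones, with a mean of 11.85 against 12.47 and 12.48 in the other CS+LPS rats. Control replicate 3 was also low among controls, at 12.17 against 12.63 in both others.

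**Figure D1:**
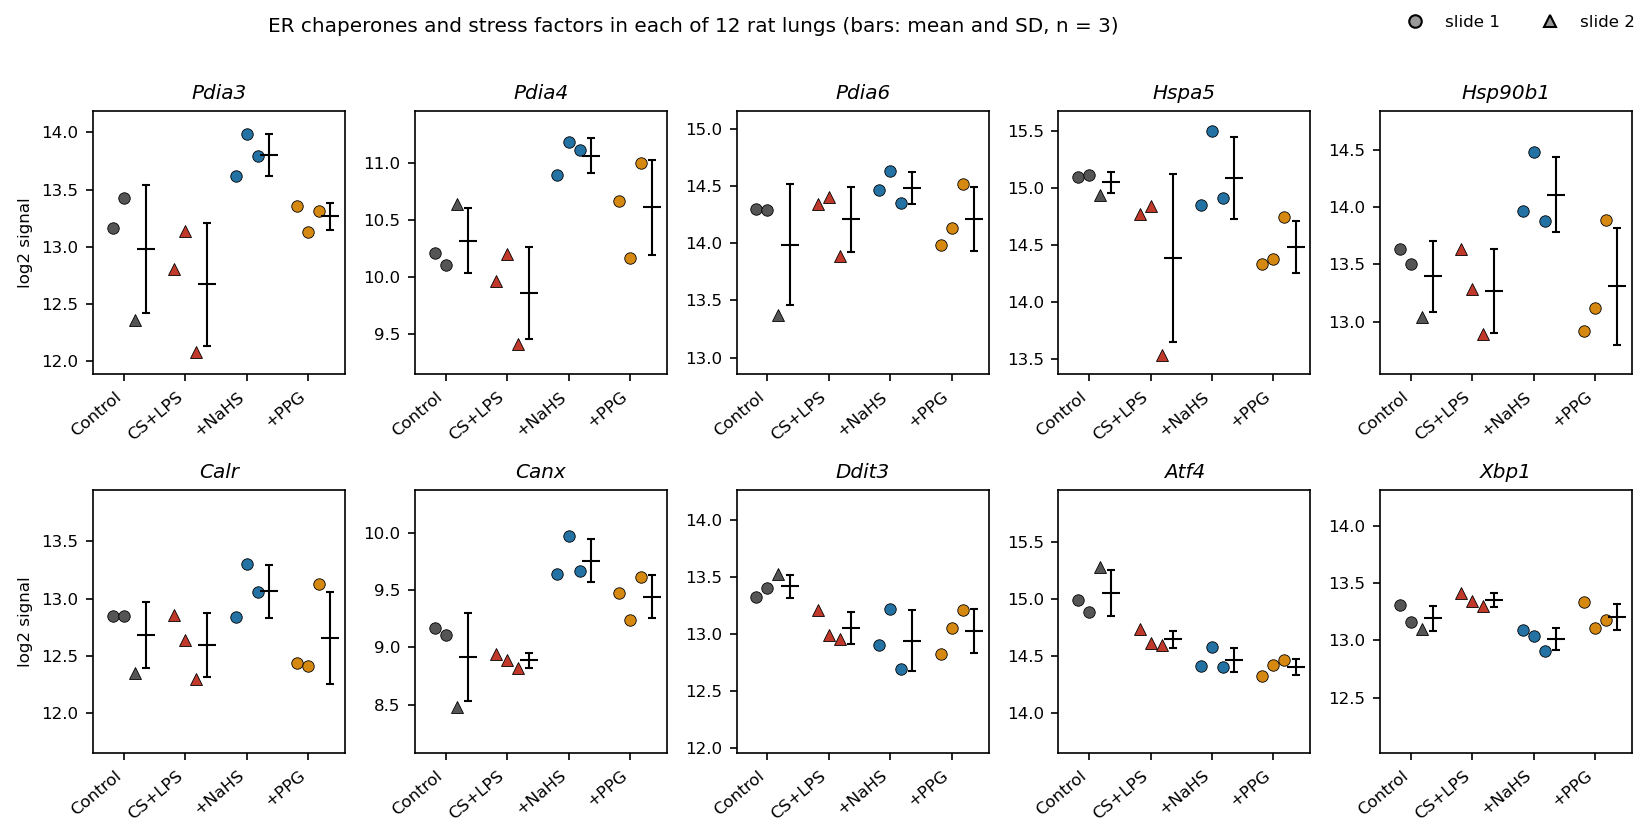
Log2 signal of the 10 genes in each of the 12 lungs, by group, with circles for slide 1, triangles for slide 2, and bars for the mean and SD of 3 rats; every panel spans the same height. Pdia3, Pdia4, Hspa5, Hsp90b1 and Canx are higher in all 3 CS+LPS+NaHS lungs than in any CS+LPS lung, as are 12.5% of all probes. Atf4 and Ddit3 are higher in all 3 Control lungs than in any exposed lung.

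The comparison of CS+LPS+NaHS with CS+LPS asks what the H2S donor changed in exposed lungs. None of the 10 members was called by limma at an adjusted p under 0.05, where 0.593% of all probes were called. At an unadjusted p under 0.05, 5 members were higher (7.47% of all probes) and 1 was lower (2.2% of all probes), and the methods' t-test gave 4 and 1 with 0 after adjustment. The higher ones were Pdia3, Pdia4, Hspa5, Hsp90b1 and Canx, and the lower one was Xbp1. These 5 were also the members whose NaHS values all lay above those of CS+LPS (12.5% of all probes), while Xbp1 and Atf4 lay below them without overlap (8.03%). By the rule of the study's methods, a fold of at least 2 with an unadjusted p under 0.05, 2 members were higher (Pdia3 and Pdia4), against 1.49% of all probes. The median log2 change of the 10 members was 0.58, against -0.01 over all probes. This median was 0.17 with slide as a block and 0.30 without CS+LPS replicate 3.

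Pdia3, a disulfide isomerase that works with Calr and Canx on glycoproteins, was among the DE genes that the study listed on these same samples, so its difference is not independent evidence. Its log2 signal was 12.80, 13.13 and 12.08 in the CS+LPS rats and 13.62, 13.99 and 13.80 in the CS+LPS+NaHS rats. The groups did not overlap, and CS+LPS replicate 3 was the lowest of all 12 lungs. The log2 change was 1.13 ± 0.30 (SE, n = 3 in each group; adjusted p = 0.155 from limma). The fit with slide as a block gave 0.19 ± 0.42 (SE, adjusted p = 0.775). Control replicate 3, the array that links the slides, read 12.36 in Pdia3, against 13.17 and 13.43 in the other controls. Without control replicate 3 in the fit the change of 1.13 was called, at an adjusted p of 0.0445 from limma, and over all single arrays left out the adjusted p ran up to 0.483.

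Pdia4, another disulfide isomerase, read 9.97, 10.20 and 9.42 in CS+LPS and 10.89, 11.18 and 11.11 with NaHS. All 3 NaHS rats were higher than every CS+LPS rat (12.5% of all probes) and every control (12.7%). The control values were 10.21, 10.10 and 10.64. The log2 change was 1.20 ± 0.25 (SE, n = 3 in each group; adjusted p = 0.0728 from limma). Adding slide as a block gave 1.68 ± 0.43, which was called (adjusted p = 0.0217 from limma, where 23% of all probes were called), and without control replicate 3 it was called as well, at an adjusted p of 0.0385. Leaving out single arrays gave changes from 0.97 to 1.37 with adjusted p-values up to 0.298, and the other alternatives gave adjusted p-values up to 0.231. Pdia4 was thus higher with NaHS under both treatments of slide, but its size moved with slide, as did that of Pdia3, from 1.13 to 0.19. Control replicate 3, which links the slides, had the highest Pdia4 of the controls, at 10.64. Pdia6, the third isomerase, changed by 0.27 ± 0.26 (SE, adjusted p = 0.866 from limma), with ranges of 13.88 to 14.40 in CS+LPS and 14.35 to 14.63 with NaHS that overlapped. Its value was -0.64 with slide as a block.

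Canx, the membrane-bound lectin chaperone, read 8.95, 8.89 and 8.82 in CS+LPS and 9.64, 9.97 and 9.66 with NaHS. The groups stood well apart, and the spread within CS+LPS was small (SD 0.06). The log2 change was 0.87 ± 0.19 (SE, n = 3 in each group; adjusted p = 0.0816 from limma). It was called without control replicate 3 (adjusted p = 0.0138), and with only the 2 groups in the fit (adjusted p = 0.0427). Leaving out other single arrays gave adjusted p-values up to 0.343. The change was 0.21 ± 0.23 with slide as a block (adjusted p = 0.533), and control replicate 3 had the lowest Canx of all lungs, at 8.48. Calr, its soluble counterpart, changed by 0.47 ± 0.24 (SE, adjusted p = 0.591 from limma), with 12.30 to 12.85 in CS+LPS and 12.84 to 13.30 with NaHS, and by -0.03 with slide as a block.

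Hspa5, the chaperone that also keeps the stress sensors inactive, read 14.77, 14.84 and 13.54 in CS+LPS and 14.85, 15.50 and 14.91 with NaHS. The groups did not overlap, but the lowest NaHS rat was close to the highest CS+LPS rat. The log2 change was 0.70 ± 0.31 (SE, adjusted p = 0.508 from limma), or 0.54 with slide as a block, and it was 0.28 without CS+LPS replicate 3. Hsp90b1 read 13.63, 13.28 and 12.90 in CS+LPS and 13.97, 14.48 and 13.88 with NaHS. Every NaHS rat was again higher, and the log2 change was 0.84 ± 0.29 (SE, adjusted p = 0.307 from limma), or 0.31 with slide as a block. Hsp90b1 was 0.65 without CS+LPS replicate 3.

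Of the stress factors, Xbp1 read 13.42, 13.35 and 13.30 in CS+LPS and 13.09, 13.04 and 12.91 with NaHS. All NaHS rats were lower, and the log2 change was -0.34 ± 0.12 (SE, adjusted p = 0.312 from limma), or -0.48 with slide as a block. Atf4 changed by -0.18 ± 0.13 and Ddit3 by -0.11 ± 0.16 (SE, adjusted p = 0.787 and 0.926 from limma). Both turned their sign with slide as a block, to 0.16 for Atf4 and 0.05 for Ddit3.

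Markers of other secretory cells were read in the same comparison, only in the fit without a slide term, and they did not move as 1 group. Of 6 exocrine pancreas markers, Ctrb1 and Cpa1 were detected, Prss1, Cpb1 and Pnlip were not, and Cel had no named probe. The summed signal of both detected genes was 407 to 466 in CS+LPS, 1498 to 2604 in CS+LPS+NaHS, 543 to 1696 in CS+LPS+PPG and 618 to 1363 in Control. Ctrb1, the precursor of the digestive enzyme chymotrypsin, was higher in CS+LPS+NaHS than in CS+LPS by 2.39 on the log2 scale (adjusted p = 0.0385 from limma), and Cpa1, a pancreatic carboxypeptidase, by 0.24 (adjusted p = 0.952). The study listed Ctrb1 among its DE genes on these same samples, so its difference is not independent evidence. The part of such tissue in the chaperone values was not tested. Of 5 plasma cell markers, 4 were detected, and all 4 were lower in CS+LPS+NaHS than in CS+LPS, with a median of -0.56 and 0 called. Tnfrsf17 differed by -1.28 (adjusted p = 0.183 from limma) and Mzb1 by -0.91 (adjusted p = 0.365 from limma), both at an unadjusted p under 0.05. Pou2af1 differed by -0.21 and Sdc1 by -0.04. The summed signal of the 4, which follows the brightest probe, overlapped, at 38284 to 47430.1 in CS+LPS and 35433 to 41246 in CS+LPS+NaHS. The part of plasma cells in the chaperone values was not tested. Of the 5 alveolar type 2 markers detected 1 was higher, with a median of -0.07, and they summed to 739778 to 799722 in CS+LPS and 738436 to 777583 in CS+LPS+NaHS. Of the 4 airway secretory markers detected 3 were higher, with a median of 0.50 and 0 called. They summed to 232455 to 283447 in CS+LPS and 235997 to 296291 in CS+LPS+NaHS. The part of these cells in the chaperone values was not tested.

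The comparison of CS+LPS with Control asks what the exposure changed. None of the 10 members was called by limma, against 2.02% of all probes. Atf4 and Ddit3 were lower at an unadjusted p under 0.05 (13.3% of all probes were), and 0 members were higher. The methods' t-test also gave 2 lower and 0 higher, with 0 after adjustment. Atf4, the factor translated when protein synthesis slows, read 14.99, 14.88 and 15.28 in Control and 14.74, 14.61 and 14.59 in CS+LPS, so that every exposed rat was below every control, as in 12.3% of all probes. The log2 change was -0.40 ± 0.13 (SE, n = 3 in each group; adjusted p = 0.108 from limma). The fit with slide as a block gave -0.63 ± 0.14, which was called (adjusted p = 0.00674 from limma, where 41.6% of all probes were called), while over the other alternatives the adjusted p reached 0.409. Within slide 2, where 3 CS+LPS rats met a single control, it was -0.63 (adjusted p = 0.1). Ddit3 read 13.32, 13.40 and 13.52 in Control and 13.21, 12.99 and 12.96 in CS+LPS, again without overlap, with a log2 change of -0.37 ± 0.16 (SE, adjusted p = 0.19 from limma). Xbp1 changed by 0.16 ± 0.12 (SE, adjusted p = 0.39).

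Among the chaperones, Hspa5 had the lowest value of this comparison. It read 15.09, 15.11 and 14.94 in Control. All 3 CS+LPS rats were lower, as in 12.3% of all probes, and its log2 change was -0.66 ± 0.31 (SE, adjusted p = 0.212 from limma). Without CS+LPS replicate 3 the change was -0.24. The others lay between -0.46 for Pdia4 and 0.22 for Pdia6, with adjusted p-values from 0.271 to 0.923 and overlapping groups. With slide as a block the signs of 4 of them turned, to 0.32 for Pdia3, 0.22 for Hsp90b1, 0.25 for Calr and 0.41 for Canx, while Pdia4 was at -0.78. The median log2 change of the 10 members was -0.22, against -0.04 over all probes, and with slide as a block the median was 0.24. In that fit Pdia6 was higher by 0.83 ± 0.25 (SE, adjusted p = 0.0228 from limma, and up to 0.744 over the other alternatives), and the single control on the slide of CS+LPS read 13.37 against 14.29 in both other controls. Markers of other cells were called in the same comparison without a slide term. They were Cd68 of macrophages (1.39), Fcnb of neutrophils (2.78) and Lamp3 of alveolar type 2 cells (0.81). Of the 5 alveolar type 2 markers detected 3 were higher, while Sftpc (-0.45) and Sftpb (-0.27) were lower. The 5 summed to 803479 to 1086330 in Control and 739778 to 799722 in CS+LPS. The part of these cell types in the member values was not tested.

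Both treated groups were also compared with Control, which is 1 and the same set of rats in each comparison. In CS+LPS+NaHS against Control, 0 members were called by limma, as were 0.0989% of all probes. At an unadjusted p under 0.05, 4 members were higher (Pdia3, Pdia4, Hsp90b1 and Canx, against 9.01% of all probes) and 2 were lower (Atf4 and Ddit3, against 8.12%). The methods' t-test gave 2 and 2, with 0 after adjustment. The log2 changes were 0.82 ± 0.30 for Pdia3, 0.74 ± 0.25 for Pdia4, 0.71 ± 0.29 for Hsp90b1 and 0.84 ± 0.19 for Canx (SE), with adjusted p-values of 0.225, 0.206, 0.258 and 0.124 from limma. Hspa5 differed little from Control, at 0.04 ± 0.31. Within slide 1, which holds control replicates 1 and 2 beside the NaHS rats, the values were 0.50, 0.90, 0.54 and 0.62 in the same order, and 0 members were called. Atf4 changed by -0.59 ± 0.13 and Ddit3 by -0.48 ± 0.16 (SE, adjusted p = 0.121 and 0.206 from limma), and within slide 1 by -0.47 and -0.42. The median log2 change of the 10 members was 0.44 and that of all probes 0.00385, and within slide 1 the members had a median of 0.20.

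In CS+LPS+PPG against Control, Atf4 fell, and it was the 1 member called by limma in any of the 6 comparisons without a slide term, where 2.03% of all probes were called lower. Its log2 signal was 14.33, 14.42 and 14.47 in the CS+LPS+PPG rats, below all 3 controls, as in 14.5% of all probes. In Atf4, and in Ddit3 too, all exposed lungs lay below the lowest control. The share of all probes with that joint pattern was not counted. Against the same controls, 12.3% of all probes lay lower without overlap in CS+LPS, 12.1% in CS+LPS+NaHS and 14.5% in CS+LPS+PPG. The log2 change of Atf4 was -0.65 ± 0.13 (SE, n = 3 in each group; adjusted p = 0.032 from limma), a fold of 1.57 lower. It was -0.53 with slide as a block (adjusted p = 0.0401) and also -0.53 within slide 1 (adjusted p = 0.0411). The call was lost with no filter on dim probes, with only both groups in the fit and by the methods' t-test, where the adjusted p was 0.0732, 0.175 and 0.186. It was lost too with arrays scaled to the median of all probes (adjusted p = 0.0523) and with replicate number as a block (adjusted p = 0.0727). It was also lost when control replicate 1, CS+LPS+NaHS replicates 2 or 3, or any of the CS+LPS+PPG replicates was left out, where the adjusted p reached 0.0928 and the change stayed between -0.53 and -0.73. Markers of several cell types were called in the same comparison without a slide term. Cd68 of macrophages changed by 1.33, Fcnb of neutrophils by 2.61, Lamp3 of alveolar type 2 cells by 1.14 and Scgb3a1 of airway secretory cells by 3.61, and Pecam1 of endothelium by -0.82 on the log2 scale (adjusted p from 0.0206 to 0.0424 by limma). Other markers of 3 of these lists went the other way. Of 5 alveolar type 2 markers 3 were higher, while Sftpc (-0.38) and Sftpb (-0.27) were lower. Of 4 airway secretory markers 2 were higher, while Scgb1a1 and Scgb3a2 were both at -0.51. Of 3 endothelial markers 1 was higher, Cdh5 at 0.04. The summed signal of the 2 macrophage markers detected of 4 was 3768 to 7210 in Control and 11162 to 15071 with PPG. That of 4 of 5 neutrophil markers was 7063 to 18396 and 24393 to 34412, and that of 3 of 3 endothelial markers 61632 to 65941 and 38591 to 46603, so these sums did not overlap. The sums of the alveolar type 2 and the airway secretory markers overlapped, at 803479 to 1086330 against 779322 to 939036 and at 276001 to 572230 against 250094 to 358665. The part of these cells in the Atf4 value was not tested.

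In the same comparison 1 member was higher at an unadjusted p under 0.05 (16.4% of all probes) and 2 were lower (12.9%). Canx changed by 0.53 ± 0.19, Ddit3 by -0.39 ± 0.16 (SE, adjusted p = 0.107 and 0.146 from limma), and Atf4 as given above. Hspa5 read 14.33, 14.38 and 14.75 with PPG, below all controls as in 14.5% of all probes, and changed by -0.56 ± 0.31 (SE, adjusted p = 0.254 from limma). The remaining 6 members had changes between -0.09 and 0.29, and between -0.26 and 0.45 with slide as a block. In that fit Canx was at 0.31 and Ddit3 at -0.33. The median over the 10 members was -0.0044, or -0.14 with slide as a block, and over all probes -0.01.

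Against CS+LPS, the CS+LPS+PPG group had 0 members called by limma (0.523% of all probes). At an unadjusted p under 0.05, 2 members were higher (Pdia4 and Canx, against 7.3% of all probes) and 0 were lower, while the methods' t-test gave 1 higher and 1 lower and 0 after adjustment. Pdia4 changed by 0.75 ± 0.25 and Canx by 0.56 ± 0.19 (SE, adjusted p = 0.308 and 0.313 from limma). Pdia4 was at 1.23 and Canx at -0.10 with slide as a block, so the sign of Canx turned. Pdia6 changed by 0.002 ± 0.26 and, with slide as a block, by -0.92. The same block turned Pdia3 from 0.59 to -0.35, Hsp90b1 from 0.04 to -0.49, Calr from 0.06 to -0.44 and Atf4 from -0.24 to 0.10, none of them called in either fit. The median of the 10 members was 0.05 without the block and -0.19 with it.

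CS+LPS+NaHS and CS+LPS+PPG lay on the same slide, so their difference carries no slide. Its SE in the main fit was taken over the arrays of both slides. This comparison had 0 calls by limma among members and over all probes (0%), and the methods' t-test also called 0 members after adjustment. All 7 chaperones, which vary together, were higher with NaHS than with PPG, by 0.27 to 0.80 on the log2 scale. At an unadjusted p under 0.05, 1 member was higher (3.64% of all probes) and 0 were lower, in both tests. That member was Hsp90b1, which read 12.92, 13.12 and 13.89 with PPG, so that CS+LPS+PPG replicate 3 reached into the NaHS range. Its log2 change was 0.80 ± 0.29 (SE, n = 3 in each group; adjusted p = 0.563 from limma), with a 95% interval from 0.16 to 1.44. Pdia3, Hspa5 and Canx did not overlap between both groups, as did 12% of all probes in this direction, with changes of 0.54 ± 0.30, 0.60 ± 0.31 and 0.31 ± 0.19 (SE, adjusted p = 0.618, 0.598 and 0.647 from limma). In this fit the intervals of the other 6 chaperones covered 0, from -0.12 to 1.19 for Pdia3 and from -0.09 to 1.29 for Hspa5, for example. Slide as a block, or slide 1 alone, left the changes as they were, with an SE for Pdia3 of 0.23 and 0.13. In each of these fits 3 members were higher at an unadjusted p under 0.05 from limma, and 0 were called. They were Pdia3 and Hsp90b1 in both, with Canx under the block and Hspa5 within slide 1. The shares of all probes were not counted there. Those of the 3 factors covered 0 as well, with -0.23 to 0.35 for Atf4, -0.45 to 0.27 for Ddit3 and -0.45 to 0.07 for Xbp1. The median of the 10 members was 0.36, against 0.01 over all probes.

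**Figure D2:**
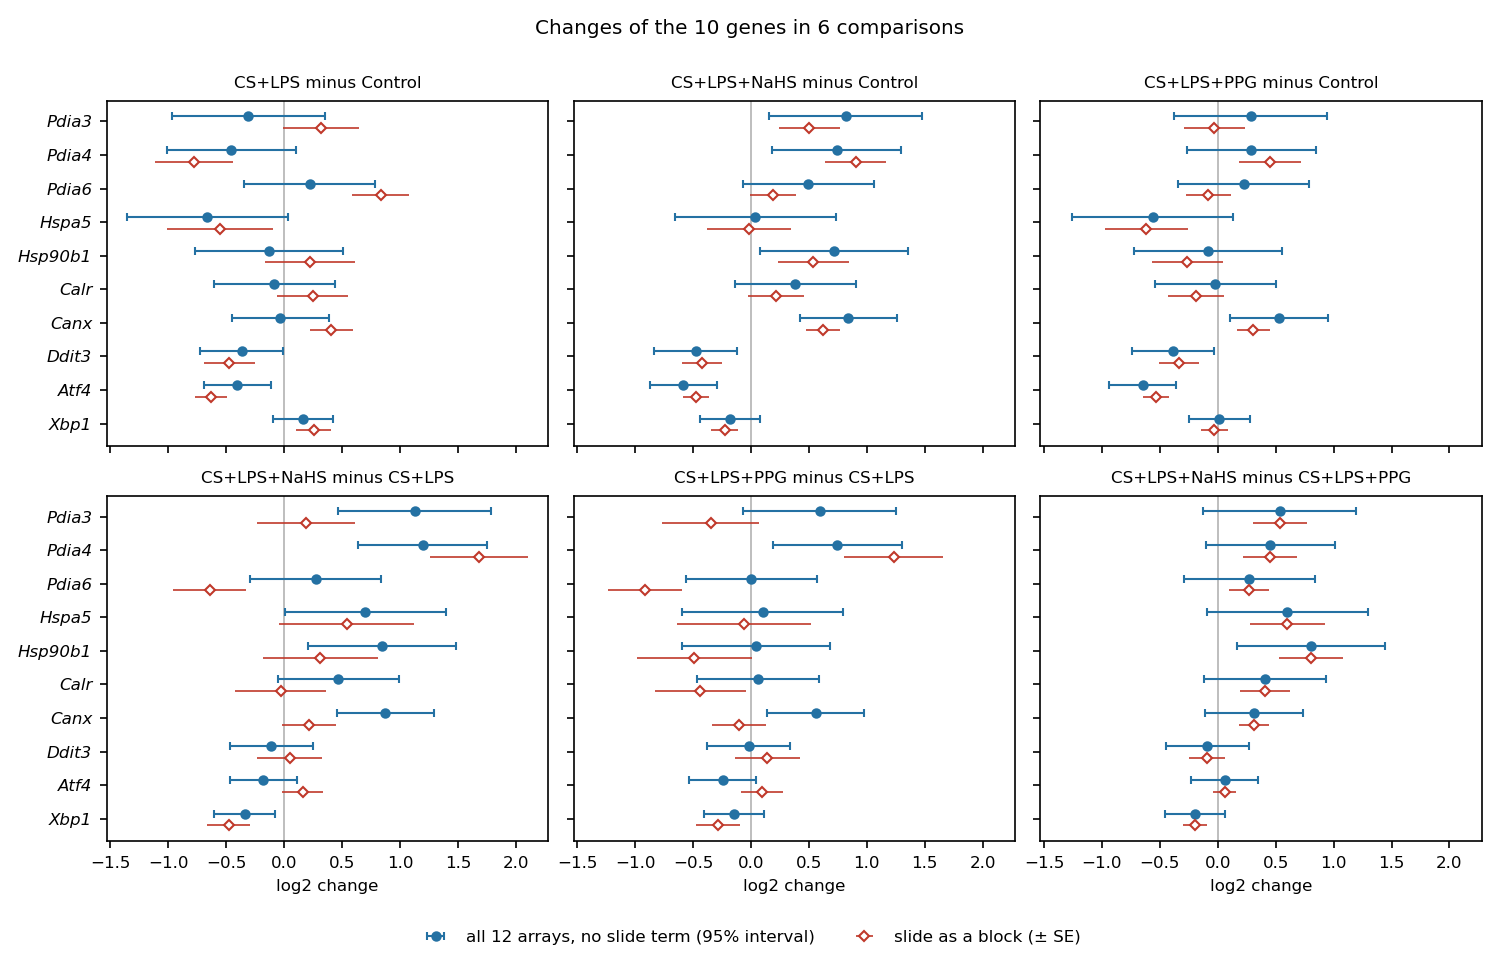
Log2 change of the 10 genes in the 6 comparisons, with filled circles and 95% intervals for the fit without a slide term and open diamonds with SE for the fit with slide as a block. Atf4 is below 0 in each comparison with Control in both fits, while Pdia3 for CS+LPS+NaHS minus CS+LPS moves from 1.13 to 0.19 and Pdia4 from 1.20 to 1.68.

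The chaperones varied together from rat to rat. Over the 12 arrays the 21 pairs among the 7 chaperones had a median Pearson's r of 0.72 (0.33 to 0.95) and a median Spearman's rho of 0.67. Hsp90b1 and Calr were the closest pair, at r = 0.95. Over deviations from the group means, which leave out the difference between groups, the median r was 0.72 (0.04 to 0.95), and without control replicate 3 and CS+LPS replicate 3 it was 0.63 (0.26 to 0.94). The 21 pairs of a chaperone with a stress factor had a median r of -0.28 (-0.68 to 0.43) over 12 arrays and 0.23 (-0.43 to 0.66) over deviations. The median of these pairs was thus below 0 across groups and above 0 within them. These correlations are given as a description, since the arrays share groups, slides and scaling.

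**Figure D3:**
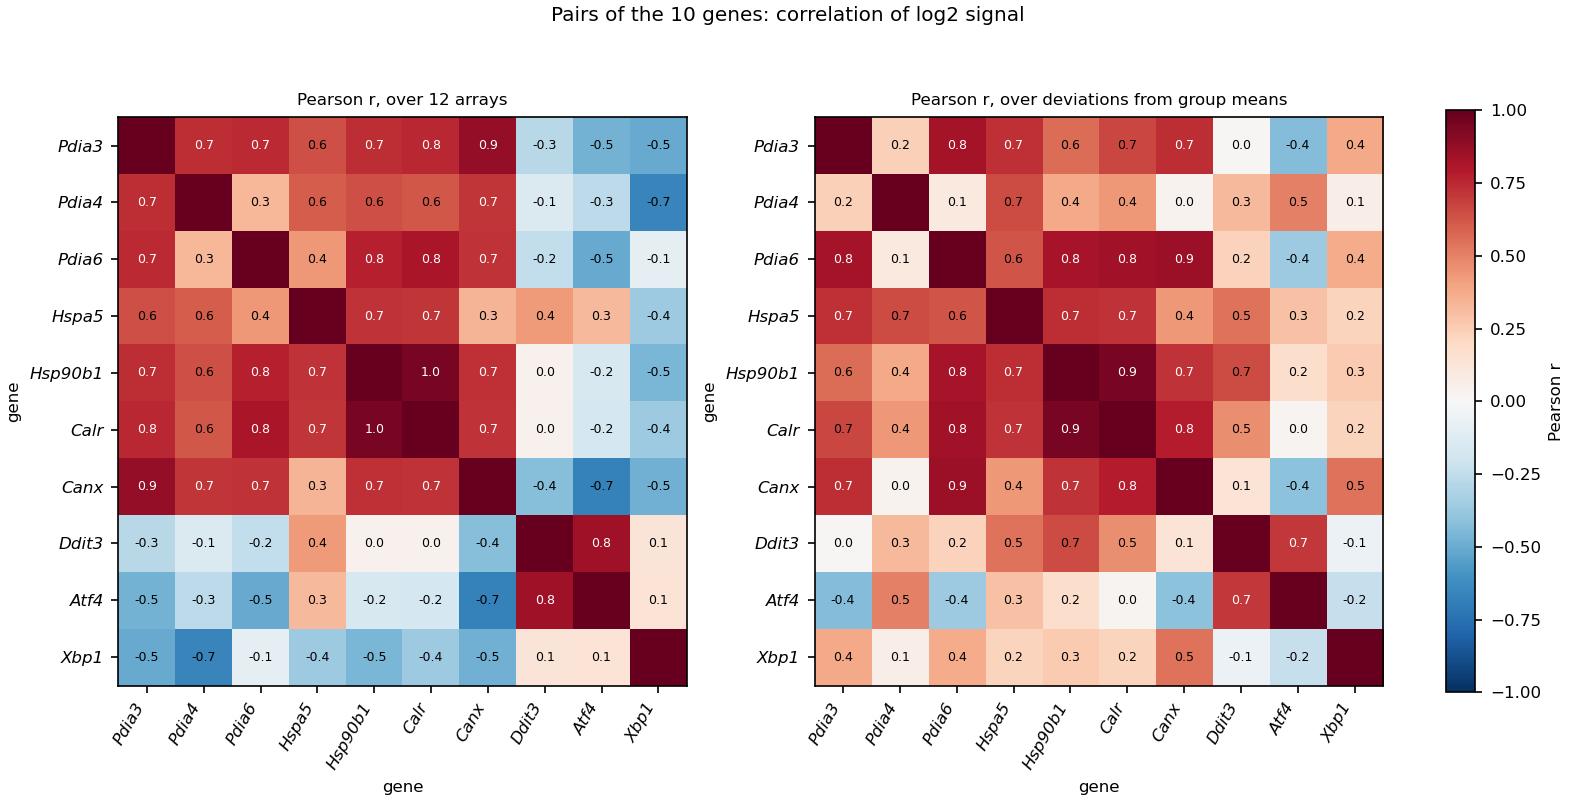
Pearson's r of log2 signal for each pair of the 10 genes, over 12 arrays on the left and over deviations from the 4 group means on the right, on a colour scale from -1 to 1. The 7 chaperones form a block of positive values in both panels, with a median of 0.72 in each.

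Among 10226 other named genes well above background on all arrays, the 5 most like Hspa5 over 12 arrays by Pearson's r were Erp29 (0.966), Cfl2 (0.888), Serpinh1 (0.888), Ahsa1 (0.886) and Tox4 (0.873). Erp29 is a disulfide isomerase-like protein of the endoplasmic reticulum, and Serpinh1 is its collagen chaperone. Without control replicate 3 they were Erp29 (0.967), Cndp2 (0.934), Sgtb (0.92), Dnaja4 (0.919) and Magt1 (0.917). Erp29 therefore led both lists, and the ranks below it changed. Erp29 read 13.32, 13.17 and 12.89 in Control and 12.89, 12.81 and 11.33 in CS+LPS. It read 12.75, 13.36 and 12.84 with NaHS and 12.35, 12.61 and 12.83 with PPG. As in Hspa5, CS+LPS replicate 3 was the lowest lung, and neither list was made without that array. No comparison of Erp29 was called by limma (adjusted p from 0.203 to 0.855).

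The wider stress response was read from 44 further genes in lists by role, of which 36 had a named probe and all 36 were detected. In CS+LPS+PPG against Control, limma called 1 of the 36 higher and 2 lower at an adjusted p under 0.05, where 2.61% of all probes were called higher and 2.03% lower. None of the 36 was called in the other 5 comparisons without a slide term, where the counts at an unadjusted p under 0.05 were 1 higher and 2 lower for CS+LPS against Control, where 11.9% and 13.3% of all probes were. They were 4 and 3 for CS+LPS+NaHS against Control (9.01% and 8.12% of all probes), 3 and 0 for CS+LPS+NaHS against CS+LPS (7.47% and 2.2%), 0 and 3 for CS+LPS+PPG against CS+LPS (7.3% and 3.21%), and 5 and 0 for CS+LPS+NaHS against CS+LPS+PPG (3.64% and 5.1%). Hyou1, an exchange factor of Hspa5, read 12.62, 12.83 and 12.88 in Control and 12.01, 11.86 and 12.15 with PPG. It fell by 0.77 ± 0.17 on the log2 scale (SE, adjusted p = 0.0403 from limma). Ppp1r15a, a target of Atf4 and Ddit3 that restarts translation, read 12.54, 12.39 and 13.09 in Control and 11.87, 11.81 and 11.76 with PPG. It fell by 0.86 ± 0.19 on the log2 scale (SE, adjusted p = 0.0405 from limma).

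Asns, asparagine synthetase and also a target of Atf4, moved the other way from Atf4. It read 10.63, 10.83 and 10.10 in Control and 11.40, 11.28 and 11.12 with PPG, and it rose by 0.75 ± 0.19 (SE, adjusted p = 0.0496 from limma). In CS+LPS and CS+LPS+NaHS its values against Control were 0.75 and 0.72, with adjusted p-values of 0.0658 and 0.142. Under the block for slide, all 3 calls in the PPG group were lost, at adjusted p-values of 0.0629 for Hyou1, 0.0536 for Ppp1r15a and 0.0734 for Asns. The same block gave 12 calls of the 36 in CS+LPS against Control, 5 higher and 7 lower, where 41.6% of all probes were called. Among them were Asns at 1.17 (adjusted p = 0.00147 from limma), Ppp1r15a at -0.86 (adjusted p = 0.00738) and Pdia2, a further disulfide isomerase, at -2.37 (adjusted p = 0.00219). Control replicate 3 read 8.29 in Pdia2, against 6.42 and 5.76 in the other controls. The block gave 3 calls in CS+LPS+NaHS against CS+LPS (Pdia2 higher, Os9 and Vcp lower) and 3 lower in CS+LPS+PPG against CS+LPS (Edem2, Os9 and Vcp), where 23% and 22.6% of all probes were called.

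By role, the 10 targets of Atf4 and Ddit3 had a median log2 change against Control of -0.30 in CS+LPS, -0.22 in CS+LPS+NaHS and -0.38 in CS+LPS+PPG, where 9, 7 and 8 of the 10 were lower. With slide as a block these medians were -0.37, -0.27 and -0.39. The 4 stress sensors and regulators had medians of -0.16, -0.25 and -0.26, and of -0.29, -0.15 and -0.22 with the block. The 8 co-chaperones of Hspa5 had medians of 0.06, 0.13 and 0.05, and the 5 genes of disulfide and glycoprotein folding had medians of 0.15, 0.19 and -0.12. The block moved them to 0.38, 0.04 and -0.11 for the co-chaperones and to 0.32, 0.07 and -0.30 for the folding genes. The 9 genes of degradation from the endoplasmic reticulum had medians of 0.12, -0.0042 and -0.21, or 0.03, -0.13 and -0.21 with the block. These lists were described and not tested as sets, and the medians of all probes were -0.04, 0.00385 and -0.01 in the same order.

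**Figure D4:**
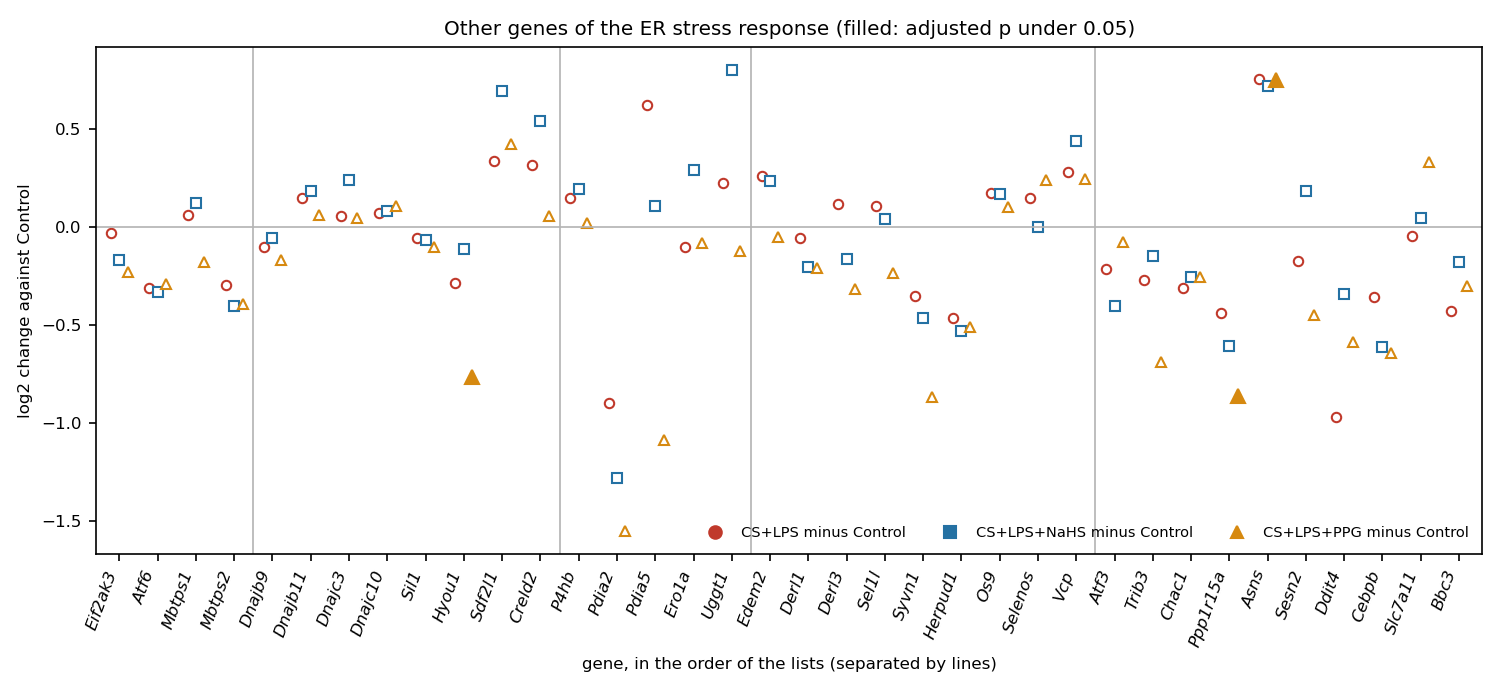
Log2 change against Control of 36 further genes of the stress response, in 5 lists by role separated by vertical lines, with circles for CS+LPS, squares for CS+LPS+NaHS and triangles for CS+LPS+PPG; filled symbols had an adjusted p under 0.05. The 3 filled triangles are Hyou1 and Ppp1r15a below 0 and Asns above 0.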

How the data were processed

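Lung RNA of 12 rats was hybridized in a single colour to Agilent rat arrays. The authors deposited the output of Agilent Feature Extraction 10.7 (per the submitters' processing notes), whose processed signal is an intensity with the background already subtracted. They also deposited lists of DE genes with fold changes, p-values and normalized signals, and none of these columns was used here (60 of them hold signals of single rats). Groups came from the sample labels.

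Outlier spots were left out, log2 signals were averaged over the spots of a probe, and arrays were scaled to a common 75th percentile over probes, namely the mean of theirs. Atf4 had 10 spots and each of the other members 2, and outlier spots were left out for Atf4 (4) and Pdia6 (1). A probe was tested if it stood well above background throughout 1 group or more, that is on all 3 of its arrays. Tests were run with limma 3.58.1 in R 4.3.3 (package data.table, version 1.17.8) and tried out on simulated data. Figures used Python 3.11.15 and matplotlib 3.10.9. The files of control replicates 1 and 2 and of CS+LPS+NaHS replicate 1 hold their signals rounded. Symbols came from RefSeq accessions (17514 of 30367 probes).

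The members, lists and tests were chosen with earlier results of these data known. Named genes were the 10 members, called genes of the wider lists (at most 10), and the 5 genes most like Hspa5. Features of the proteins were planned and not analysed here. Alternatives were other normalizations, background correction (normexp, offset 50, on the median signal in place of the planned mean signal) and filters, no removal of outlier spots, a block for slide or for replicate number, a fit of just the pair of groups at issue, the t-test of the methods, and the omission of each array in turn. The percentile was first taken over spots before averaging, and this order was replaced by that given above, after values had been seen, to keep to the processing used for the whole series.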

Additional observations from a re-analysis of the deposited data

How the results depend on the processing

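With slide as a block, 2 members were called in CS+LPS against Control (Atf4 and Pdia6) and 1 in CS+LPS+NaHS against CS+LPS (Pdia4), where 41.6% and 23% of all probes were called. The median change then was 0.237 for CS+LPS against Control, 0.204 for CS+LPS+NaHS against Control, 0.173 for CS+LPS+NaHS against CS+LPS and -0.194 for CS+LPS+PPG against CS+LPS. Within slide, the medians for CS+LPS and CS+LPS+NaHS against Control were the same 0.237 and 0.204. Canx in CS+LPS+PPG against CS+LPS turned to -0.102 with slide as a block. No other change with an unadjusted p under 0.05, of 20, turned its sign under any alternative. Over all 60 changes 24 turned in at least 1 alternative, and the 17 that turned in one other than slide were each at most 0.283 in size.

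The call of Atf4 in CS+LPS+PPG against Control gave a count of 0 with the fold rule, with no filter on dim probes, with only both groups in the fit, by the methods' t-test, and with arrays scaled to the median of all probes, which was chosen after seeing the data. That scaling moved the median of all probes in CS+LPS+NaHS minus CS+LPS to -0.125, and the 10 members then had a median of 0.467. The fold rule gave 2 members in CS+LPS+NaHS against CS+LPS, and only these groups in the fit gave 1 (Canx). The percentile over spots before averaging, run first, left the count of members called as it was in each comparison.

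Same-numbered replicates deviated together with correlations of -0.309 to 0.139, and 1 of 12 arrays correlated best with its own number. No pairing of the rats by number was thus visible in these values, which cannot show that same-numbered rats were handled apart. With replicate number as a block, 0 members were called in CS+LPS+PPG against Control (Atf4, adjusted p = 0.0727 from limma) and the count was 0 in the other comparisons.

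Leaving out single arrays gave 0 to 1 members called in CS+LPS+PPG against Control and 0 to 3 in CS+LPS+NaHS against CS+LPS (3 without control replicate 3), and 0 elsewhere. The median changes then ranged from -0.341 to -0.00717 for CS+LPS against Control, 0.204 to 0.559 for CS+LPS+NaHS against Control, -0.135 to 0.0962 for CS+LPS+PPG against Control, 0.299 to 0.747 for CS+LPS+NaHS against CS+LPS, -0.123 to 0.206 for CS+LPS+PPG against CS+LPS, and 0.23 to 0.492 for CS+LPS+NaHS against CS+LPS+PPG. Every member has 1 probe, so averaging over the probes of a gene left the log2 changes as they were, while adjusted p-values moved with the smaller number of tests (Atf4 in CS+LPS against Control, 0.0939). All members were well above background with 0 saturated spots, so signal over background does not limit them. Where no cause is given, the cause was not tested.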
